A study of Mus musculus with 30 samples.

Results

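Stellate cell and platelet-derived growth factor (PDGF) genes were followed in livers of male mice with and without hepatocyte CCAAT/enhancer binding protein alpha (CEBPA). The 10 genes were taken by symbol from the 55450 gene rows of the count table, and each symbol had 1 row. They comprised *Des*, *Reln*, *Hand2* and *Ngfr*, which mark stellate cells in the resting liver, *Acta2* and *Tagln*, which mark activated stellate cells, the receptors *Pdgfra* and *Pdgfrb*, and the ligands *Pdgfa* and *Pdgfb*. Poly(A) RNA of 30 livers was sequenced as stranded libraries, 1 per mouse, in 3 experiments that the submitters describe as separate batches, each with 5 Cebpa fl/fl mice without Cre and 5 Cre-positive knockout mice. All mice carried floxed *Cebpa* alleles and were fed a diet rich in fat, cholesterol and fructose (HFCFD) that promotes steatohepatitis. In HFCFD2W, Cebpa ΔHep mice, in which an albumin promoter drives Cre constitutively, were compared with Cebpa fl/fl mice after 2 weeks of diet. In HFCFD8W+T10D, Cebpa ΔHep,ERT2 mice, in which the albumin promoter drives a tamoxifen-dependent Cre, carried the label of 8 weeks of diet and 10 days of tamoxifen. In HFCFD12W+T10W, mice of the same kind ate HFCFD for 22 weeks and received tamoxifen for the last 10 weeks. The Cebpa fl/fl mice of each experiment had the same diet and, in the inducible experiments, tamoxifen. Ages at collection and chow-fed livers are not analysed here. The Cre targets hepatocytes, so stellate cells keep *Cebpa*, and a difference in a stellate cell gene is a difference in whole-liver RNA.

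Hepatic stellate cells are vitamin A-storing pericytes of the liver sinusoid. After injury they turn into myofibroblasts, which lose their vitamin A, make contractile proteins and deposit collagen. PDGF is a major mitogen of these cells: dimers of the A and B chains bind receptor tyrosine kinases of the alpha and beta type, and the beta receptor is known to increase on activation. Contractile genes such as *Acta2* and *Tagln* are classical targets of serum response factor (SRF) and its myocardin-related cofactors (MRTF), which bind the CArG box, a CC and a GG around a stretch of A and T.

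Libraries held 7996123 to 10257347 counts, and several of the 10 genes had under 20 counts per library, so that small changes could not be resolved. *Cebpa* itself was lower in all knockout livers than in any Cebpa fl/fl liver of the same experiment. Its log2 fold change was -2.38 in HFCFD12W+T10W, -3.04 in HFCFD8W+T10D and -5.23 in HFCFD2W. The 5 hepatocyte markers summed to 42291 to 49958 CPM (counts per 1e6 scaled library counts) in knockout livers and 89999 to 111140 CPM in Cebpa fl/fl livers of HFCFD12W+T10W, and to 48999 to 102600 against 104260 to 130550 CPM in HFCFD8W+T10D. In HFCFD2W the sums overlapped, at 107750 to 156690 against 105620 to 134400 CPM. Of the 5 markers, 3 passed as lower in each inducible experiment and 0 in HFCFD2W. Most of each sum was *Alb*, with means of 35080 and 77545 CPM in knockout and Cebpa fl/fl livers of HFCFD12W+T10W. CPM were scaled with trimmed mean of M values (TMM) factors. Without that scaling, the median log2 fold change of all genes would shift by 0.37 in HFCFD12W+T10W and by 0.18 in HFCFD8W+T10D towards higher values in knockout livers. In a whole liver, more stellate cells and more RNA per stellate cell cannot be told apart. Nor can fewer hepatocytes and less marker RNA per hepatocyte, the cell that lost *Cebpa*, so the marker sums do not measure the share of hepatocytes.

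Promoter windows of 300 bases (250 before to 50 after the RefSeq transcript start, GRCm38.p6) were found for 7 of the 10 genes, that is, all but *Tagln*, *Pdgfrb* and *Pdgfb*. The windows below are those of the activated gene *Acta2*, the resting marker *Des* and the receptor *Pdgfra*, whose fold changes in HFCFD12W+T10W span the range from contractile to resting genes. SRF and CEBPA motifs were looked for in the windows of all 7 genes, and only *Acta2* and *Pdgfra* held a match. Capitals mark CArG boxes with at most 1 G or C in the A and T stretch in *Acta2*, and TTGCNNAA, a C/EBP-type motif read on either strand, in *Pdgfra*.
Acta2, chr19:34255324-34255623, minus strand: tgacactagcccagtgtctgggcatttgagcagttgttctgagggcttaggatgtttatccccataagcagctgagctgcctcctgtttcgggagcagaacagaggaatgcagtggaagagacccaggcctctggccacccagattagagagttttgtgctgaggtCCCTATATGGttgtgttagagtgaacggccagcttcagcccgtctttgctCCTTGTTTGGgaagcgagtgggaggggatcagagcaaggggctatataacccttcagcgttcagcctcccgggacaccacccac
Des, chr1:75360042-75360341, plus strand: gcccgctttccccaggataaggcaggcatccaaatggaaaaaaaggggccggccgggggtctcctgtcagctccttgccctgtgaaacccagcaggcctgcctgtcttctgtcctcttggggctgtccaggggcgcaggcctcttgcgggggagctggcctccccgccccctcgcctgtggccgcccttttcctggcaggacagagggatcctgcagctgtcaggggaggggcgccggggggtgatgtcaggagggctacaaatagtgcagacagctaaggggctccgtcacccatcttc
Pdgfra, chr5:75152001-75152300, plus strand: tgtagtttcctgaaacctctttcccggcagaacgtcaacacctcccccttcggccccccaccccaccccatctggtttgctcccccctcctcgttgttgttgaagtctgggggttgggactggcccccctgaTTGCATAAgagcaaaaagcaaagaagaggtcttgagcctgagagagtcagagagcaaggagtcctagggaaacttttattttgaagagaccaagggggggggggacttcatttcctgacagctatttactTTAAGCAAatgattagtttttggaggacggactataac

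In *Acta2* the CArG-type matches were CCCTATATGG and CCTTGTTTGG, at bases -84 to -75 and -34 to -25 counted from 0 at the RefSeq start. Since *Pdgfa* had a window at each of 2 RefSeq starts, 8 windows of the 7 genes were searched. None of them held a CArG box with A and T only, which occurred in 1.63% of all 32851 windows, and the form with 1 G or C allowed occurred in 9.98% of them and, among the 7 genes, in *Acta2* alone. The C/EBP-type motif occurred in 10.8% of all windows and, of the 7 genes, in *Pdgfra* alone, as TTGCATAA at bases -118 to -111 and, on the other strand, as TTAAGCAA at bases 12 to 19. The RefSeq start of *Acta2* lies 217 bases downstream of the GENCODE gene start, so most of its window is inside the GENCODE gene, whereas the starts of *Des* and *Pdgfra* differ by 37 and 41 bases. A match shows that these letters are present and not that a factor binds there.

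All 10 genes are protein coding in GENCODE M21 (GRCm38). *Des* lies at chr1:75360329-75368579 on the plus strand, *Hand2* at chr8:57320983-57324633 on the plus strand and *Ngfr* at chr11:95568818-95587735 on the minus strand. *Reln*, at chr5:21884454-22344702 on the minus strand, spans 460249 bases and is the longest of them. *Acta2* lies at chr19:34241090-34255590 and *Tagln* at chr9:45929619-45936058, both on the minus strand. The receptors are *Pdgfra*, at chr5:75152292-75198215, and *Pdgfrb*, at chr18:61045150-61085061, both on the plus strand. *Pdgfa* lies at chr5:138976014-138997370 and *Pdgfb* at chr15:79995874-80014977, both on the minus strand. Counts were summed over whole genes, so none of the values below belongs to a single exon or transcript.

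Levels between genes were compared as TPM, transcript abundance scaled for both gene length and library. *Reln*, which encodes a secreted glycoprotein, had the highest TPM of the 10 genes in every group. Its median ran from 14.8 TPM in Cebpa fl/fl livers of HFCFD2W to 41.2 TPM in knockout livers of HFCFD12W+T10W. TPM carry no TMM factor, and the medians of these 2 groups were 53.9 and 86.9 in TMM-scaled CPM. *Tagln* came next in every group, with medians between 3.86 and 15.7 TPM. *Pdgfb* was lowest in both genotypes of HFCFD2W and in the Cebpa fl/fl livers of both other experiments, with medians of 0.19 to 0.69 TPM, whereas its medians were 2.12 TPM in knockout livers of HFCFD8W+T10D and 3.14 TPM in those of HFCFD12W+T10W. In the Cebpa fl/fl livers of HFCFD12W+T10W the order after *Reln* and *Tagln* was *Pdgfrb* (1.89 TPM), *Des* (1.71), *Hand2* (1.63), *Pdgfra* (1.57), *Pdgfa* (1.5), *Ngfr* (1.08), *Acta2* (0.69) and *Pdgfb* (0.57). Every pair of neighbours in that order overlapped in range over the 5 livers except *Reln* and *Tagln*. In the knockout livers of the same experiment the order after *Reln* and *Tagln* was *Pdgfra* (6.42 TPM), *Pdgfrb* (6.18), *Pdgfa* (4.42), *Des* (3.98), *Hand2* (3.95), *Ngfr* (3.28), *Pdgfb* (3.14) and *Acta2* (3.07). There too the ranges of neighbours overlapped, other than those of *Reln*, *Tagln* and *Pdgfra*, and of *Hand2* and *Ngfr*.

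**Figure D1:**
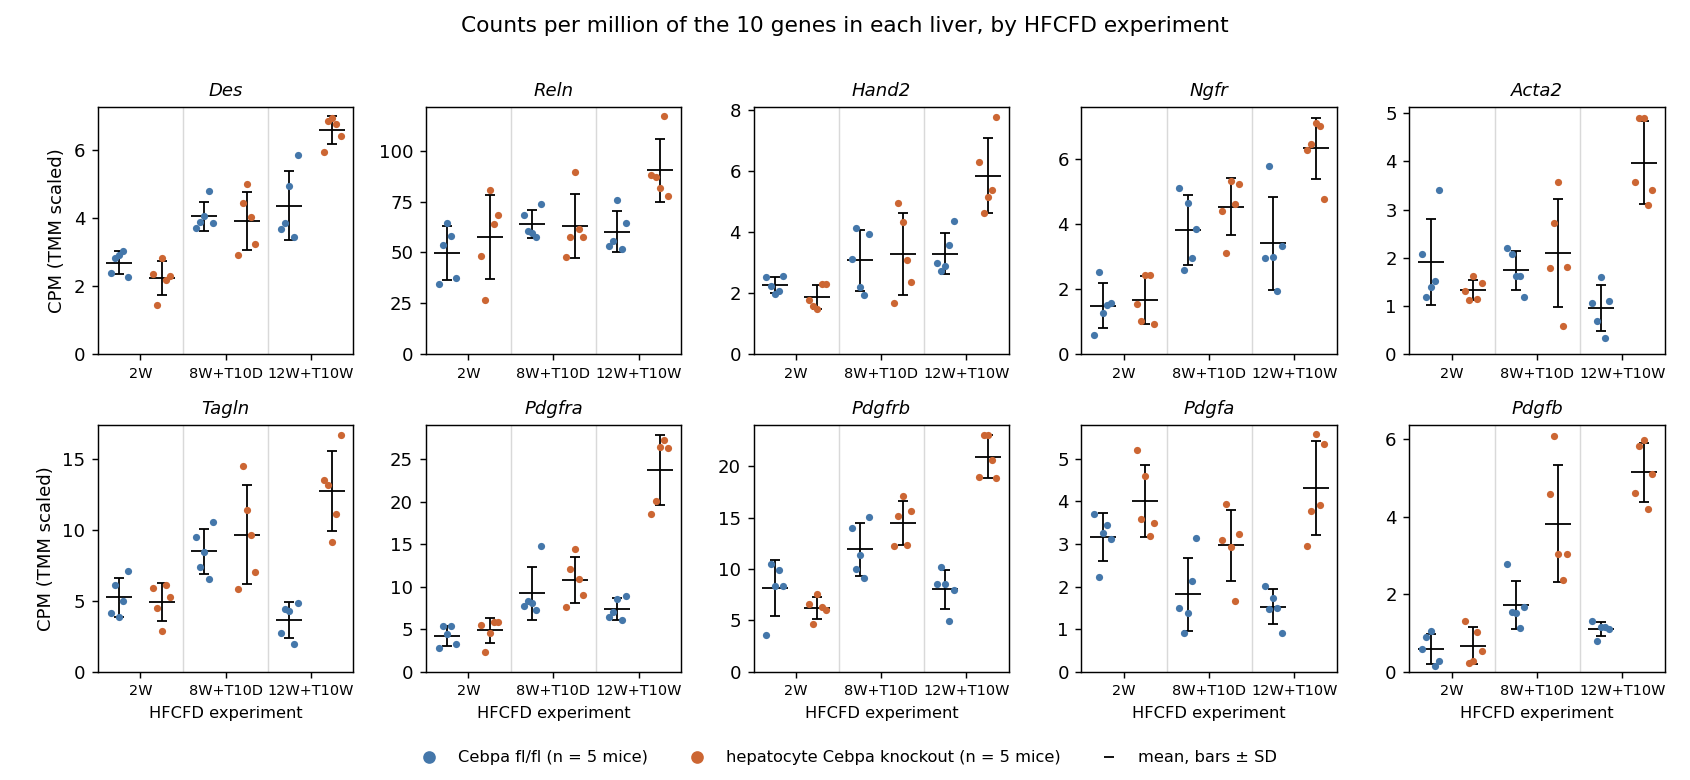
TMM-scaled CPM of the 10 genes (vertical axes, linear from 0) in each of 30 livers, grouped by HFCFD experiment (horizontal axis) with Cebpa fl/fl in blue and hepatocyte Cebpa knockout in orange. Points are mice, and bars are the mean ± SD of 5 mice. In HFCFD12W+T10W the knockout livers lie above all Cebpa fl/fl livers for each gene but *Ngfr*, where the lowest knockout liver (4.78 CPM) lies below the highest Cebpa fl/fl liver (5.78 CPM).

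Whether hepatocyte CEBPA loss changed these genes was asked within each experiment with the quasi-likelihood test of edgeR, with p-values adjusted by the Benjamini-Hochberg method over all genes tested, and a gene passed at an adjusted p under 0.05. In HFCFD12W+T10W all 10 genes rose in knockout livers (10 of 10, against 27.4% of the 12463 genes tested that passed as higher). In HFCFD8W+T10D *Pdgfb* alone passed, as higher, and its call depended on single mice, as given below. That count (1 of 10) was at the share of all genes (10.3% of 11990). No gene passed in HFCFD2W (0 of 9 tested, against 16.7% of 11068 genes in either direction). In HFCFD2W the smallest unadjusted p of the 9 genes was 0.0963, so 0 were under 0.05 unadjusted, and DESeq2 passed 0 as well. The median log2 fold change of the genes tested was 1.49 in HFCFD12W+T10W, 0.24 in HFCFD8W+T10D and -0.07 after 2 weeks, where all genes had medians of 0.01 in each. In HFCFD12W+T10W, 9 of the 10 genes had knockout livers that were all above the Cebpa fl/fl livers, as had 19.6% of all genes tested. In HFCFD8W+T10D and HFCFD2W 0 of the genes tested did so, against 6.01% and 6.33% of all genes. Library totals in place of TMM left the count at 10 of 10 in HFCFD12W+T10W, although the split of all genes went from 3411 higher and 2960 lower to 7049 higher and 962 lower.

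The resting stellate cell genes rose in HFCFD12W+T10W by less than 2-fold with TMM scaling. With library totals the log2 fold changes were 1.24 for *Hand2* and 1.29 for *Ngfr*, and as TPM the ratio of means was 2.03 for *Des*, 1.93 for *Reln*, 2.36 for *Hand2* and 2.44 for *Ngfr*. *Des*, which encodes the intermediate filament desmin, had 3.68, 3.85, 4.94, 3.44 and 5.86 CPM in the Cebpa fl/fl livers and 5.93, 6.84, 6.93, 6.75 and 6.39 CPM in the knockout livers. The groups did not overlap, but the highest Cebpa fl/fl liver came within 0.1 CPM of the lowest knockout liver. The log2 fold change of *Des* was 0.63 (95% interval 0.29 to 0.97, adjusted p = 0.00464). *Reln* had 53.0, 55.9, 75.9, 51.8 and 64.4 CPM in Cebpa fl/fl livers against 88.2, 86.9, 81.8, 117 and 77.9 CPM in knockout livers, with a log2 fold change of 0.63 (0.35 to 0.91, adjusted p = 0.00136). The knockout liver at 117 CPM stood apart from the other 4, and without it the log2 fold change was 0.52 (adjusted p = 0.00273 in edgeR). *Hand2*, a basic helix-loop-helix transcription factor of stellate cells, had 2.97, 2.72, 2.87, 3.56 and 4.34 CPM against 6.28, 4.62, 5.15, 5.38 and 7.77 CPM, with a log2 fold change of 0.86 (0.46 to 1.26, adjusted p = 0.00176). *Ngfr*, the low-affinity neurotrophin receptor, had 2.97, 5.78, 2.99, 1.95 and 3.33 CPM against 6.28, 6.47, 7.09, 7.02 and 4.78 CPM. A Cebpa fl/fl liver at 5.78 CPM thus lay within the knockout range. Its log2 fold change was 0.93 (0.43 to 1.44, adjusted p = 0.00492).

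In the other experiments none of the 4 resting genes passed. In HFCFD8W+T10D their log2 fold changes were -0.04 for *Des* (95% interval -0.44 to 0.37), -0.01 for *Reln* (-0.34 to 0.32), 0.12 for *Hand2* (-0.56 to 0.80) and 0.25 for *Ngfr* (-0.23 to 0.74). In HFCFD2W they were -0.28 for *Des* (-0.72 to 0.16), 0.21 for *Reln* (-0.33 to 0.75), -0.27 for *Hand2* (-0.71 to 0.18) and 0.15 for *Ngfr* (-0.64 to 0.95). The groups overlapped for each gene in both experiments. Single libraries of HFCFD2W held 4 to 19 counts of *Ngfr* and 11 to 18 counts of *Hand2*.

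The activated genes rose more. *Acta2*, which encodes alpha-smooth muscle actin, had 1.07, 0.68, 1.61, 0.344 and 1.11 CPM in the Cebpa fl/fl livers of HFCFD12W+T10W and 3.57, 4.90, 4.90, 3.10 and 3.40 CPM in the knockout livers. These values rest on 3 to 14 counts per library in Cebpa fl/fl livers and 34 to 58 in knockout livers, and the groups were well apart. *Acta2* rose 4.20-fold (log2 fold change 2.07, 1.43 to 2.72, adjusted p = 9.12e-05). *Tagln*, which encodes the actin-binding protein transgelin, had 2.73, 4.42, 4.25, 1.95 and 4.85 CPM against 13.5, 13.1, 9.12, 11.1 and 16.7 CPM, and rose 3.57-fold (log2 fold change 1.84, 1.34 to 2.33, adjusted p = 2.86e-05). The lower bounds of *Acta2* and *Tagln*, 1.43 and 1.34, lay above the upper bounds of *Des*, *Reln* and *Hand2*, 0.97, 0.91 and 1.26. The upper bound of *Ngfr*, 1.44, overlapped both. No test between genes was made. In the wider lists below, the median log2 fold change was 0.87 for stellate cell markers and 0.69 for contractile genes other than the members. The latter list also holds the filament gene *Vim*.

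In HFCFD8W+T10D *Acta2* had 1.18 to 2.20 CPM in Cebpa fl/fl livers and 0.593 to 3.58 CPM in knockout livers, so that the knockout livers lay on both sides of the others (log2 fold change 0.30, -0.49 to 1.10). *Tagln* behaved alike, with 6.5 to 10.5 CPM against 5.81 to 14.5 CPM (0.21, -0.31 to 0.72). Knockout replicate 2 had the highest *Tagln* of that experiment at 14.5 CPM, and without it the log2 fold change was -0.0028. In HFCFD2W *Acta2* had 2.08, 1.19, 1.4, 1.52 and 3.41 CPM in Cebpa fl/fl livers and 1.12 to 1.62 CPM in knockout livers (log2 fold change -0.52, -1.17 to 0.13). The Cebpa fl/fl livers with the highest *Acta2*, replicates 5 and 1, also had the highest summed level of the 5 smooth muscle markers (4.97 and 3.27 CPM against 0.83 to 2.68 CPM in the other 8 livers of that experiment), and the part of those markers in the result was not tested. *Tagln* in HFCFD2W was at 3.85 to 7.10 against 2.84 to 6.13 CPM (-0.07, -0.57 to 0.42).

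Both PDGF receptors rose in HFCFD12W+T10W. *Pdgfra* had 6.42, 7.02, 8.62, 6.08 and 8.89 CPM in Cebpa fl/fl livers and 18.6, 20.1, 26.4, 27.3 and 26.4 CPM in knockout livers. The lowest knockout liver was at more than double the highest Cebpa fl/fl liver, and *Pdgfra* rose 3.29-fold (log2 fold change 1.72, 1.4 to 2.04, adjusted p = 1.62e-06). *Pdgfrb* had 8.55, 10.2, 8.5, 4.94 and 7.98 CPM against 19, 23.1, 23.1, 20.6 and 18.9 CPM, and rose 2.68-fold (1.42, 1.10 to 1.75, adjusted p = 7.96e-06). In HFCFD8W+T10D neither passed: *Pdgfra* was at 7.31 to 14.8 CPM in Cebpa fl/fl livers and 7.59 to 14.4 CPM in knockout livers (0.23, -0.25 to 0.72), and *Pdgfrb* at 9.14 to 15.1 against 12.3 to 17.1 CPM (0.30, -0.05 to 0.65). The Cebpa fl/fl liver at 14.8 CPM, replicate 5, stood apart from the other 4 and had the highest summed level of the 6 mesothelial markers in that experiment (53.2 CPM against 3.00 to 46.4 CPM). Without it the log2 fold change of *Pdgfra* was 0.47 (adjusted p = 0.118 in edgeR). In HFCFD2W *Pdgfra* was at 2.82 to 5.38 against 2.36 to 5.91 CPM (0.19, -0.37 to 0.74). *Pdgfrb* was at 3.56 to 10.5 against 4.60 to 7.57 CPM there (-0.40, -0.90 to 0.11). The value of 3.56 CPM belongs to Cebpa fl/fl replicate 1, the other 4 livers being at 8.37 to 10.5 CPM. Without this mouse *Pdgfrb* passed as lower in knockout livers (log2 fold change -0.59, adjusted p = 0.0273 in edgeR).

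The ligand *Pdgfb*, the B chain carried by platelets, endothelium and macrophages, was the gene that passed in both inducible experiments. In HFCFD12W+T10W it had 1.31, 0.793, 1.15, 1.15 and 1.11 CPM in Cebpa fl/fl livers and 4.62, 5.82, 6.00, 4.20 and 5.10 CPM in knockout livers, 4.78-fold higher (log2 fold change 2.26, 1.85 to 2.66, adjusted p = 1.29e-06). This was the largest fold change of the 10 genes. In HFCFD8W+T10D it had 2.78, 1.55, 1.51, 1.12 and 1.67 CPM against 4.59, 6.09, 3.03, 2.37 and 3.04 CPM, 2.26-fold higher (1.18, 0.51 to 1.85, adjusted p = 0.0211). The groups overlapped there, since the highest Cebpa fl/fl liver exceeded the lowest knockout liver. That Cebpa fl/fl liver, replicate 1, also held 56.8 CPM of the 5 platelet markers against 3.25 to 10.4 CPM in the other 9 livers, and without it the log2 fold change of *Pdgfb* was 1.41 (adjusted p = 0.0139). Without knockout replicate 2 it was 0.93 (adjusted p = 0.0528) and without Cebpa fl/fl replicate 4 it was 1.04 (adjusted p = 0.0567), so the call rests on these mice. In HFCFD2W *Pdgfb* had too few counts to enter the fit (1 to 11 per library, 0.138 to 1.30 CPM), and its mean log2 CPM differed by 0.12 between genotypes (exact two-sided permutation test over all arrangements of the 10 mice, p = 0.802, where the smallest possible p is 0.00794).

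*Pdgfa*, the A chain, had 2.02, 1.47, 1.72, 1.49 and 0.909 CPM in Cebpa fl/fl livers of HFCFD12W+T10W and 2.96, 3.79, 5.57, 3.92 and 5.34 CPM in knockout livers, 2.93-fold higher (log2 fold change 1.55, 1.03 to 2.08, adjusted p = 1.72e-04). In HFCFD8W+T10D it was at 0.906 to 3.15 against 1.66 to 3.95 CPM (0.71, 0.02 to 1.4, unadjusted p = 0.0451 in edgeR's fit, adjusted p = 0.150). Fitted together with all libraries, the adjusted p was 0.0497. In HFCFD2W *Pdgfa* was at 2.23 to 3.71 against 3.19 to 5.21 CPM (0.35, -0.07 to 0.76). The CPM ranges overlapped in both of these experiments.

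**Figure D2:**
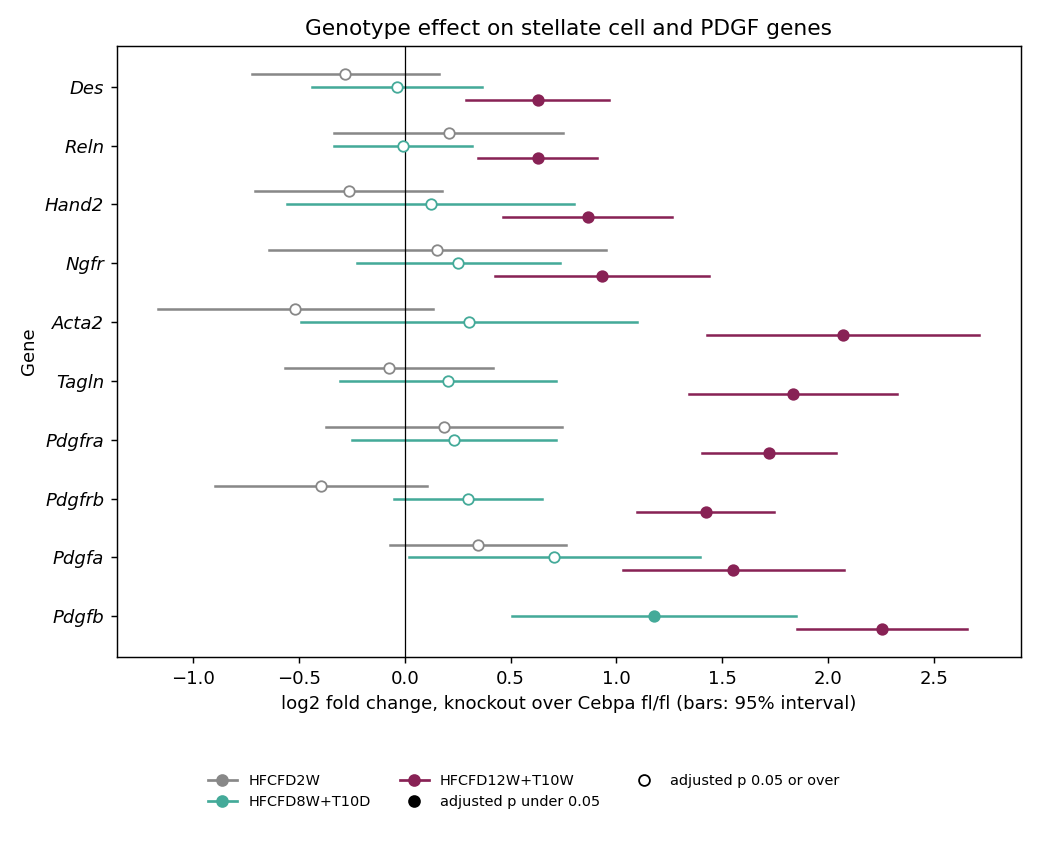
log2 fold change of knockout over Cebpa fl/fl livers (horizontal axis) for each of the 10 genes (vertical axis) in 3 experiments of 5 against 5 mice, with 95% intervals from edgeR. Filled points passed at an adjusted p under 0.05, and *Pdgfb* is not shown in HFCFD2W because it was not tested. All HFCFD12W+T10W points are filled and run from 0.63 to 2.26, whereas *Pdgfb* at 1.18 is the only filled point of the other experiments.

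Whether the genotype effect itself differed between experiments was tested as an interaction in a fit of all 30 libraries. The effect in HFCFD12W+T10W exceeded that in HFCFD8W+T10D for 4 of 10 genes (4.97% of 12964 genes passed in this direction). These were *Acta2* (difference in log2 fold change 1.74, 95% interval 0.77 to 2.70, adjusted p = 0.0180), *Tagln* (1.60, 0.91 to 2.30, adjusted p = 0.00345), *Pdgfra* (1.46, 0.86 to 2.07, adjusted p = 0.00234) and *Pdgfrb* (1.10, 0.56 to 1.63, adjusted p = 0.00859), in edgeR. For the other 6 genes the differences were 0.61 to 1.05 and the adjusted p-values 0.0668 to 0.276. The 4 genes that passed are the activated genes and the receptors, and a difference between these and the other genes was not tested. *Des* also passed with upper quartile scaling (0.71, adjusted p = 0.0464 in edgeR), with library totals (0.86, adjusted p = 0.0298) and without any of 3 single mice. *Des*, *Hand2* (0.94, adjusted p = 0.0479 in edgeR) and *Pdgfb* (1.30, adjusted p = 0.0434) passed without knockout replicate 2 of HFCFD8W+T10D.

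The effect in HFCFD12W+T10W exceeded that in HFCFD2W for 8 of 10 genes (13.4% of all genes), all but *Reln* (0.38, -0.22 to 0.97) and *Ngfr* (0.74, -0.15 to 1.62). With library totals in place of TMM all 10 passed, *Reln* at 0.78 (adjusted p = 0.0365 in edgeR) and *Ngfr* at 1.11 (adjusted p = 0.0482 in edgeR), and with the replicate number as a block *Pdgfa* did not (1.05, adjusted p = 0.104 in edgeR). The differences of the 8 ran from 0.87 for *Des* to 2.55 for *Acta2*. Between HFCFD8W+T10D and HFCFD2W no gene passed (0 of 10, against 11.2% of all genes in either direction). There *Pdgfrb* was the 1 gene with an unadjusted p under 0.05 in edgeR's fit, with a difference of 0.68 (0.11 to 1.25, adjusted p = 0.113 in edgeR). DESeq2 passed 0 genes. These experiments differed in the Cre, the length of diet, the tamoxifen and the batch, which cannot be told apart, and they share libraries pairwise.

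The Cebpa fl/fl livers alone differed between experiments, which are separate batches with unlike diet and tamoxifen and not a time course. From HFCFD2W to HFCFD8W+T10D, 6 genes were higher (6 of 10, against 22.2% of 12964 genes): *Pdgfb* (log2 fold change 1.49), *Ngfr* (1.35), *Pdgfra* (1.12), *Tagln* (0.70), *Des* (0.59) and *Pdgfrb* (0.54). *Pdgfa* was lower (-0.76, adjusted p = 0.0234 in edgeR; 1 of 10, against 21.5%). With library totals *Pdgfa* no longer passed (-0.56, adjusted p = 0.142 in edgeR) and *Reln* passed as higher (0.55, adjusted p = 0.0327). *Tagln*, *Pdgfrb* and *Pdgfa* no longer passed when Cebpa fl/fl replicate 1 of either experiment was left out (edgeR adjusted p from 0.0504 to 0.0925). *Tagln* and *Pdgfrb* also failed without replicate 5 of HFCFD8W+T10D, *Tagln* without replicate 3 of HFCFD2W, and *Pdgfa* without replicate 2 or 3 of HFCFD8W+T10D. From HFCFD8W+T10D to HFCFD12W+T10W *Tagln* was lower (-1.21, adjusted p = 0.00209 in edgeR; 1 of 10, against 5.12%), and *Pdgfrb* differed by -0.57 (adjusted p = 0.0523). From HFCFD2W to HFCFD12W+T10W *Ngfr* (1.19), *Pdgfra* (0.80) and *Des* (0.70) were higher (3 of 10, against 19.8%), and *Pdgfa* (-1.06) and *Acta2* (-0.98, adjusted p = 0.0378) were lower (2 of 10, against 19.4%). Both counts were near the shares of all genes. The *Acta2* call was lost without any of 6 of these 10 mice, furthest without Cebpa fl/fl replicate 5 of HFCFD2W, the liver at 3.41 CPM (-0.67, adjusted p = 0.179 in edgeR). It was also lost without a filter on low counts (-0.96, adjusted p = 0.0617) and with library totals (-0.74, adjusted p = 0.128). The Cebpa fl/fl livers of HFCFD12W+T10W had the lowest mean *Acta2* of all 6 groups (0.963 ± 0.478 CPM, SD, n = 5) and the lowest mean *Tagln* (3.64 ± 1.24 CPM), beside which the knockout livers of the same experiment are set.

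Ratios within a liver do not depend on the scaling between libraries, but in TPM they depend on the length scaling and can rest on few counts. In knockout livers of HFCFD8W+T10D, *Pdgfa* had 33 counts and 3.22 TPM in replicate 1 but 14 counts and 3.75 TPM in replicate 4. *Acta2* had 3 to 14 counts per library in Cebpa fl/fl livers of HFCFD12W+T10W, and *Pdgfb* had 1 to 11 in HFCFD2W. Ratios of counts were not compared, so the ranges below hold for TPM only. The ratio of *Acta2* to *Des* in TPM was 0.275 to 0.454 in Cebpa fl/fl livers and 0.654 to 1.11 in knockout livers of HFCFD12W+T10W, without overlap. It was 0.652 to 2.51 and 0.646 to 1.54 in the genotypes of HFCFD2W, and 0.357 to 1.05 and 0.238 to 1.15 in those of HFCFD8W+T10D. The knockout livers of HFCFD12W+T10W therefore had *Acta2* to *Des* ratios within the range of the livers of HFCFD2W, a separate batch. All Cebpa fl/fl livers of HFCFD12W+T10W lay below that range. So did replicate 4 of each genotype in HFCFD8W+T10D, at 0.357 in Cebpa fl/fl and 0.238 in knockout. *Reln* to *Des* stayed at 9.04 to 14.9 in Cebpa fl/fl livers and 8.48 to 13.5 in knockout livers of HFCFD12W+T10W. *Acta2* to *Tagln* likewise overlapped, at 0.117 to 0.295 against 0.154 to 0.408. *Pdgfrb* to *Pdgfra* was at 1.525 to 3.11 in Cebpa fl/fl and 1.24 to 2.37 in knockout livers of HFCFD2W (medians 2.13 and 1.45). It was at 1.22 to 2.19 against 1.19 to 1.99 in HFCFD8W+T10D (medians 1.52 and 1.45). In HFCFD12W+T10W it was at 0.991 to 1.63 against 0.873 to 1.38 (medians 1.14 and 1.06), and the genotypes overlapped in each experiment. *Pdgfb* to *Pdgfa* ran from 0.0138 to 0.170 over all HFCFD2W livers and from 0.195 to 1.25 over all livers of both other experiments, which did not overlap.

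**Figure D3:**
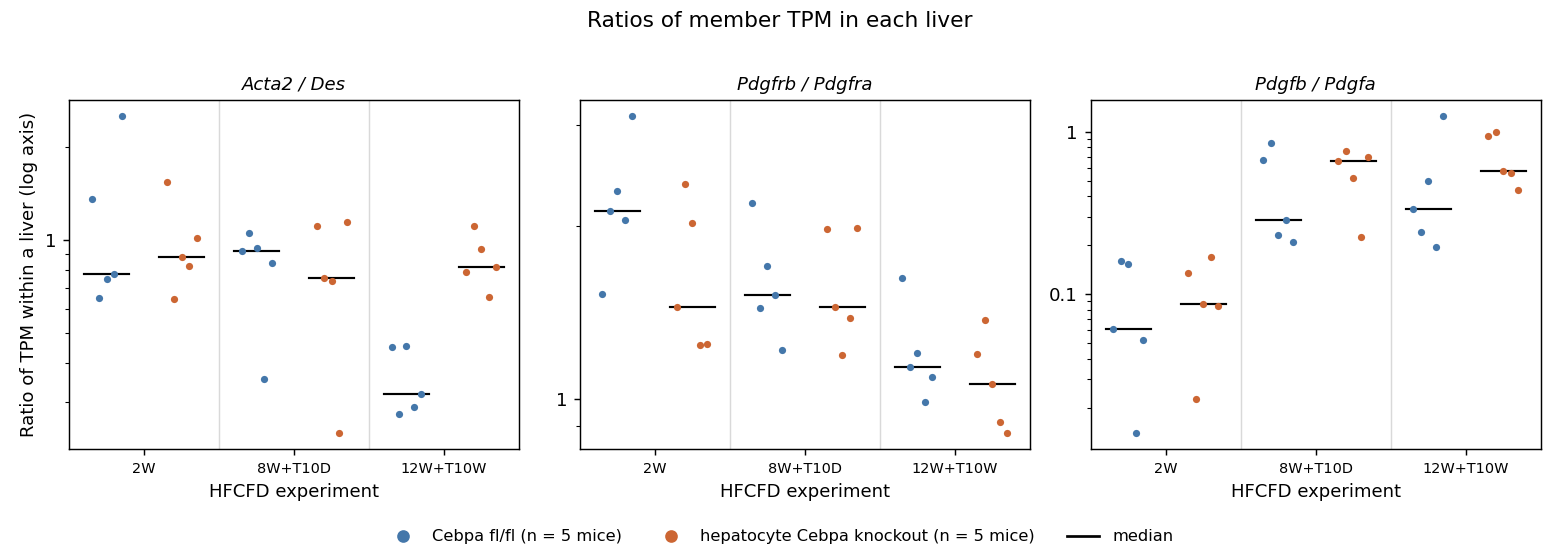
Ratios of TPM within each liver (vertical axes, log scale) for *Acta2* to *Des*, *Pdgfrb* to *Pdgfra* and *Pdgfb* to *Pdgfa*, by HFCFD experiment (horizontal axis), with Cebpa fl/fl in blue, knockout in orange, 5 mice per group and the group median as a line. *Acta2* to *Des* separates the genotypes in HFCFD12W+T10W (0.275 to 0.454 against 0.654 to 1.11), and *Pdgfb* to *Pdgfa* separates HFCFD2W from both other experiments.

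Other genes of the stellate cell and the PDGF pathway were counted in lists. Over all genes tested, 27.4% passed as higher and 23.8% as lower in HFCFD12W+T10W, 10.3% and 6.85% in HFCFD8W+T10D, and 8.60% and 8.09% in HFCFD2W. Of 12 tested stellate cell markers, 7 rose and 3 fell in HFCFD12W+T10W (median log2 fold change 0.87). *Cygb*, the stellate cell globin cytoglobin, rose by 1.90 on the log2 scale (SE 0.12) and *Rgs5*, a pericyte regulator of G-protein signaling, by 1.74 (SE 0.13). *Lrat*, the enzyme that esterifies retinol for storage, rose by 0.90 (SE 0.18), the growth factor gene *Hgf* by 0.85 (SE 0.15), the matrix gene *Dcn* by 0.89 (SE 0.10) and the filament gene *Nes* by 1.12 (SE 0.21). *Angptl6* fell by 0.88 (SE 0.19), *Ecm1*, a secreted matrix protein, fell by 0.52 (SE 0.14) and *Vipr1* fell by 0.39 (SE 0.13). In HFCFD8W+T10D 2 of 12 rose, among them *Cygb* (0.57), and in HFCFD2W 2 of 12 rose, among them *Rgs5* (0.75), with 0 falling in either. In each experiment the list held a larger rise than those given here, in a gene that is not named.

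Of 10 tested contractile genes other than the members, 6 rose and 1 fell in HFCFD12W+T10W (median 0.69). *Vim*, the mesenchymal intermediate filament vimentin, is counted in this list although it is not a contractile protein, and rose by 1.67 (SE 0.14). *Tpm1*, a tropomyosin, rose by 1.49 (SE 0.10), *Cnn2*, a calponin, by 1.24 (SE 0.15) and *Myl9*, a myosin light chain, by 1.2 (SE 0.24). *Mylk*, the myosin light chain kinase, fell by 0.35 (SE 0.08), and *Myh11*, the smooth muscle myosin heavy chain, had a log2 fold change of -0.002 (SE 0.26). In HFCFD8W+T10D *Tpm1* (0.81) and *Actn1* (0.66) rose, 2 of 10, and in HFCFD2W *Myl9* (-0.98) and *Cald1* (-0.41) fell, 2 of 9. The 5 smooth muscle markers summed to 1.72 to 5.05 CPM in Cebpa fl/fl livers and 2.83 to 5.41 CPM in knockout livers of HFCFD12W+T10W, an overlapping range. Only 2 of these markers could be tested there, *Myh11* among them, and 1 passed as higher (median log2 fold change 0.46). Of 9 tested further stellate cell and myofibroblast genes, 9 rose in HFCFD12W+T10W (median 2.44), led by the elastic fiber genes *Eln* (5.57, SE 0.22) and *Mfap4* (4.47, SE 0.31), the cross-linking enzyme gene *Loxl1* (2.97, SE 0.28) and the proteoglycan gene *Lum* (2.91, SE 0.14). In HFCFD8W+T10D 3 of 9 rose, *Eln* (1.47), *Mfap4* (1.2) and *Lum* (0.99), and 0 of 8 passed in HFCFD2W.

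Among 7 tested genes for other PDGF chains, coreceptors and ligand-processing proteases, 4 rose and 2 fell in HFCFD12W+T10W (median 1.18). *Pdgfd* rose by 2.74 (SE 0.22) and *Pdgfc* by 1.35 (SE 0.16). *Plat*, the tissue plasminogen activator that cleaves the PDGF-C proform, rose by 3.58 (SE 0.21), and *Plau*, the urokinase that cleaves the PDGF-D proform, by 1.18 (SE 0.27). *Nrp1*, a coreceptor, fell by 0.61 (SE 0.18), and *Furin*, the convertase of the A and B chain precursors, fell by 0.42 (SE 0.09). In HFCFD8W+T10D *Pdgfd* (1.23) and *Plau* (0.90) rose and *Nrp1* (-0.49) fell, 3 of 6, whereas in HFCFD2W *Pdgfc* (1.21) and *Nrp1* (0.57) rose, 2 of 4. *Nrp1* thus passed in opposite directions in HFCFD2W and in the inducible experiments.

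Genes downstream of the receptors had medians near 0. Of 12 signaling genes, 2 rose and 3 fell in HFCFD12W+T10W (median -0.06). *Src*, the tyrosine kinase, rose by 2.13 (SE 0.18) and the adaptor gene *Shc1* by 0.19 (SE 0.07). *Sos1*, the Ras exchange factor, fell by 0.67 (SE 0.08), *Pik3ca* fell by 0.25 (SE 0.09) and *Stat3* fell by 0.25 (SE 0.09). In HFCFD8W+T10D *Src* rose (0.90), whereas *Pik3r1* (-0.60) and *Sos1* (-0.56) fell, and in HFCFD2W *Shc1* (-0.29) fell. Of 4 SRF and MRTF regulators tested in HFCFD12W+T10W, *Fhl2*, an SRF cofactor, rose by 3.52 (SE 0.32) and *Mrtfa* by 0.67 (SE 0.12), while *Srf* had a log2 fold change of -0.01 (SE 0.11). In HFCFD2W *Mrtfa* rose by 0.55 (1 of 3), and in HFCFD8W+T10D 0 of 3 passed.

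**Figure D4:**
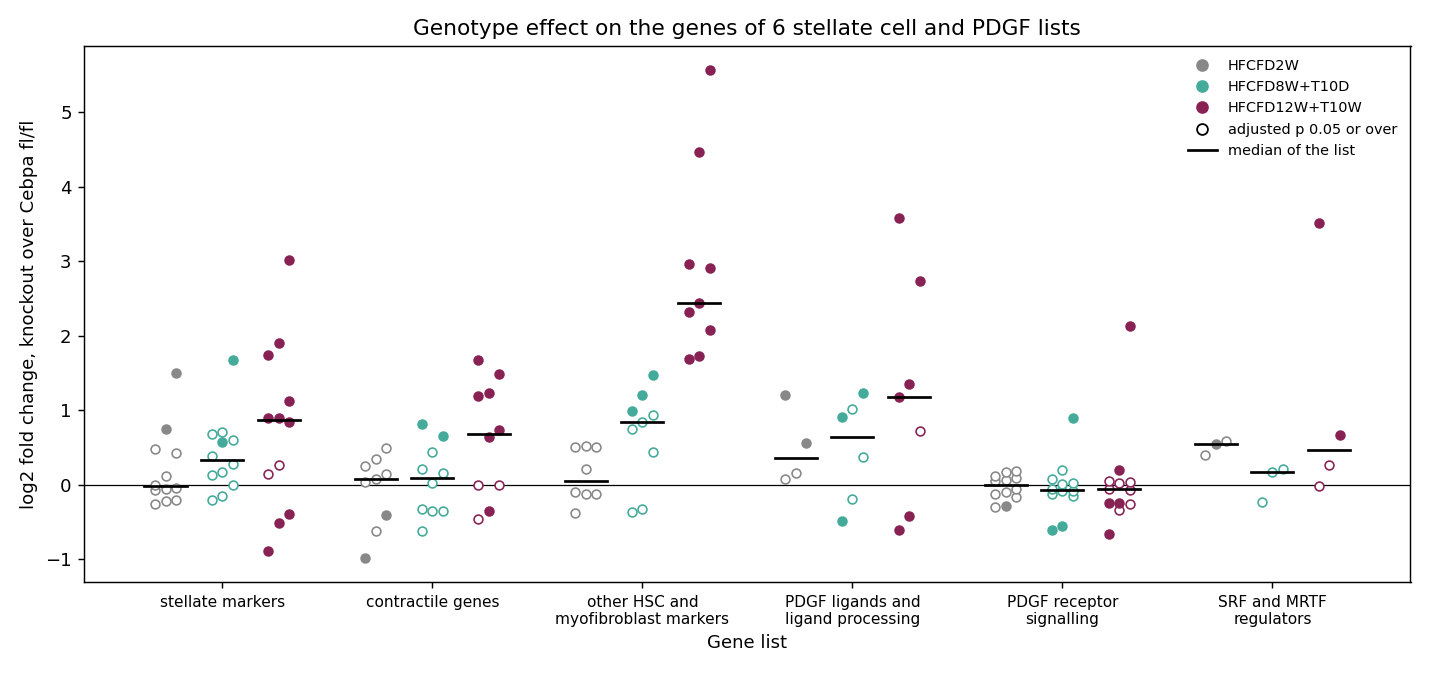
log2 fold change of knockout over Cebpa fl/fl livers (vertical axis) for every tested gene of 6 lists (horizontal axis, HSC standing for hepatic stellate cell) in 3 experiments of 5 against 5 mice. Points are genes, filled where the adjusted p was under 0.05, and black lines are the medians of the lists. The further stellate cell and myofibroblast genes have the highest median in HFCFD12W+T10W (2.44), whereas the receptor signaling genes stay around 0 (median -0.06).

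Markers of other liver cells moved with genotype beside these genes. In HFCFD12W+T10W the 6 macrophage markers summed to 202.6 to 532.3 CPM in Cebpa fl/fl livers and 663.9 to 781.8 CPM in knockout livers (5 of 6 higher), the 6 portal fibroblast markers to 7.25 to 9.99 against 43.5 to 64.9 CPM (5 of 5 tested higher), and the 5 cholangiocyte markers to 41.3 to 56.4 against 730.8 to 1029.6 CPM (5 of 5 higher). Most of the latter sum was *Spp1*, with means of 46.02 and 801 CPM, a gene that cholangiocytes do not express alone. The paper reports that hepatocyte CEBPA directly represses *Spp1*. Its single-cell data after short HFCFD feeding placed the induction of this gene mostly in hepatocytes. The summed cholangiocyte markers therefore do not measure cholangiocytes in any of the experiments. The portal fibroblast list shares *Thy1*, *Eln* and *Fbln2* with the myofibroblast list. The 7 endothelial markers were at 121.3 to 200.5 against 139.8 to 162.8 CPM, 1 higher and 1 lower. The 6 mesothelial markers were at 2.53 to 16.8 against 11.5 to 110.5 CPM, with the value of 110.5 CPM in knockout replicate 3. All 10 members passed also without that mouse. In HFCFD8W+T10D the macrophage markers were at 420.3 to 668.9 against 630.7 to 1205 CPM (5 of 6 higher) and the portal fibroblast markers at 9.14 to 16.5 against 17.1 to 24.4 CPM (2 of 5 higher). In HFCFD2W they were at 122.8 to 156.9 against 145.8 to 243.9 CPM (3 of 6 higher) and 9.35 to 14 against 11.4 to 21.8 CPM (1 of 4 higher). The cholangiocyte markers, again mostly *Spp1*, were at 38.8 to 59.3 against 147 to 354.4 CPM in HFCFD8W+T10D (3 of 5 higher). In HFCFD2W the same markers were at 33.8 to 76.4 against 375.1 to 662 CPM (1 of 2 tested higher). The 5 Schwann cell markers, a cell type that also carries *Ngfr*, were at 1.15 to 2.30 against 4.97 to 7.69 CPM in HFCFD12W+T10W. Most of this was *Mbp*, with means of 0.94 and 5.89 CPM, the 1 marker of the list that could be tested there, while *Sox10* was at 0 in all livers. The skeletal muscle markers summed to at most 0.83 CPM, with *Myh4* at 0 in all. The part of these cells in the members' changes was not tested.

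For each member, the 3 genes whose log2 CPM ran most alike over the 30 livers were named by the root mean square (RMS) difference after centering, out of 12105 genes with a mean of at least 1 CPM. Because depth, batch and genotype are shared by all genes of a library, this is a description. *Pdgfra* was closest to *Lhfp* (0.26), *Bgn* (0.28), the proteoglycan biglycan, and *Art4* (0.28), where its own SD over the livers was 0.89. *Pdgfrb* was closest to *Cavin1* (0.32), *Spry1* (0.32) and *Crtap* (0.33), with an SD of 0.68. *Des* was closest to *Arvcf* (0.26), *Myo1c* (0.26) and *Myadm* (0.27), and *Reln* to *Ltbp4* (0.22), *Arvcf* (0.25) and *Ntn1* (0.26). *Hand2* ran with *Rcn1* (0.31), *Jade2* (0.32) and *Ston1* (0.33), and *Ngfr* with *Plscr4* (0.38), *Tcf21* (0.39), a transcription factor of stellate cells, and *Pmp22* (0.40). *Tagln* was nearest to *Efemp2* (0.36), *Mms22l* (0.41) and *Wtip* (0.42). The nearest genes of *Acta2* were *Ctps2* (0.47), *Ctc1* (0.51) and *Dab2* (0.51), where its own SD was 0.75. *Pdgfa* was nearest to *Krt18* (0.39), an epithelial keratin, *Scamp5* (0.39) and *Oas1c* (0.41), and *Pdgfb* to *Tbc1d9* (0.42), *C5ar1* (0.46), a myeloid complement receptor, and *Arhgap25* (0.46). Among the members themselves, *Des* and *Reln* were the nearest pair (0.34), and *Pdgfa* and *Pdgfb* the farthest (1.26).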

How the data were processed

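Liver RNA of 30 mice was sequenced. Per the labels and methods, reads were processed with Trimmomatic 0.36, STAR 2.5.1, Picard 1.84 and RSEM 1.2.22 on mm10, and the authors deposited RSEM expected counts per gene without normalization and, per library, TPM, which RSEM scales by gene length and library. Deposited tables of TMM-normalized CPM and of RPKM were not used. Gene rows carry GENCODE M21 (GRCm38) identifiers.

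Expected counts (3.25% were not whole) were rounded and fitted within each experiment by the quasi-likelihood test of edgeR 4.0.16 in R 4.3.3, after filterByExpr and TMM scaling, with Benjamini-Hochberg adjustment over all genes tested. A joint fit of all libraries gave the differences between experiments and between Cebpa fl/fl groups. Printed CPM use the joint TMM factors, log2 CPM a prior count of 2. The steps were tested on simulated data. Library totals of 7996123 to 10257347 counts limit the precision of genes with few counts. Replicates are separate mice per the labels.

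Genes named are the 10 members, *Cebpa* as a check of the labels, up to 4 genes of each list with the largest fold change among those that passed in each experiment (*Lrat*, *Hgf*, *Dcn*, *Angptl6*, *Ecm1*, *Vipr1*, *Mylk*, *Myh11*, *Furin* and *Srf* were chosen after their values were seen), the leading gene of a marker list, marker genes at 0, and the 3 genes nearest to each member. A gene counted in the stellate cell marker list is not reported here, so the genes named from that list are not its largest changes. The members and lists were chosen with earlier results of these data known. Alternatives were no filter, DESeq2 1.42.0, upper quartile scaling, robust quasi-likelihood, a joint fit, each mouse left out, a block for the replicate number, a fold change over 2, an adjusted p under 0.01, CPM in place of TPM and, chosen after seeing the data, library totals without TMM. Same-number mice of opposite genotype correlated at -0.25 to 0.10, -0.11 to 0.15 and -0.09 to 0.17 over 2000 variable genes in HFCFD2W, HFCFD8W+T10D and HFCFD12W+T10W, so the numbers were not taken to pair mice.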

Additional observations from a re-analysis of the deposited data

Results flagged for a closer look

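Of 60 sets of 5 mice (10 genes in 6 groups), 2 held a mouse far from the others by Dixon's criterion, where chance alone would give about 5% of such sets. *Reln* in knockout livers of HFCFD12W+T10W was 117 CPM in replicate 4 and at most 88.2 CPM in the others, and *Pdgfra* in Cebpa fl/fl livers of HFCFD8W+T10D was 14.8 CPM in replicate 5 and at most 8.28 CPM in the others.

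The genotype effect differed between experiments by the interaction test for these genes, given as differences in log2 fold change. Between HFCFD12W+T10W and HFCFD8W+T10D they were 1.74 for *Acta2*, 1.60 for *Tagln*, 1.46 for *Pdgfra* and 1.10 for *Pdgfrb*. Between HFCFD12W+T10W and HFCFD2W they were 0.868 for *Des*, 1.09 for *Hand2*, 2.55 for *Acta2*, 1.87 for *Tagln*, 1.5 for *Pdgfra*, 1.78 for *Pdgfrb*, 1.16 for *Pdgfa* and 2.05 for *Pdgfb*.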

How the results depend on the processing

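In HFCFD12W+T10W all 10 genes passed under 18 of 19 alternatives, each mouse left out included, and 6 of 10 with a fold change over 2 required. In HFCFD2W 0 to 1 genes passed as each mouse was left out, the 1 being *Pdgfrb*. In HFCFD8W+T10D the count was 0 to 1 as each mouse was left out, 2 in the fit of all libraries (with *Pdgfa*) and 0 at an adjusted p under 0.01. For the differences between experiments, leaving out mice gave 4 to 7 (HFCFD12W+T10W against HFCFD8W+T10D, 7 without knockout replicate 2 of HFCFD8W+T10D), 7 to 8 (against HFCFD2W, 10 with library totals) and 0 to 1 (HFCFD8W+T10D against HFCFD2W), and the last was 1 (*Pdgfrb*) with the replicate number as a block. For Cebpa fl/fl livers it gave 4 to 7 (HFCFD8W+T10D against HFCFD2W, 4 at an adjusted p under 0.01), 1 to 2 (HFCFD12W+T10W against HFCFD8W+T10D, 2 with DESeq2 or upper quartile scaling, with *Pdgfrb*) and 4 to 5 (HFCFD12W+T10W against HFCFD2W). The causes were not tested.

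Signs turned only for differences that did not pass. With the replicate block in HFCFD2W they were -0.031 for *Reln* and -0.042 for *Pdgfra*. With library totals in HFCFD8W+T10D they were 0.14 for *Des* and 0.16 for *Reln*, and 0.023 for *Reln* with upper quartile scaling. Between Cebpa fl/fl livers they were 0.045 for *Acta2* (HFCFD8W+T10D against HFCFD2W, library totals) and, for *Pdgfrb* (HFCFD12W+T10W against HFCFD2W), 0.22 with library totals and 0.0072 with upper quartile scaling. As mice were left out, values ran from -0.042 to 0.41 for *Ngfr* and -0.17 to 0.068 for *Tagln* in HFCFD2W. In HFCFD8W+T10D they ran from -0.14 to 0.043 for *Des*, -0.18 to 0.064 for *Reln*, -0.095 to 0.27 for *Hand2* and -0.0028 to 0.33 for *Tagln*. For HFCFD8W+T10D against HFCFD2W the differences of effects ran from -0.17 to 0.28 for *Ngfr* and -0.15 to 0.28 for *Pdgfra*. Between Cebpa fl/fl livers they ran from -0.27 to 0.16 for *Acta2* (HFCFD8W+T10D against HFCFD2W), -0.030 to 0.18 for *Des*, -0.016 to 0.23 for *Hand2* and -0.45 to 0.0033 for *Pdgfa* (HFCFD12W+T10W against HFCFD8W+T10D), and -0.21 to 0.13 for *Pdgfrb* (HFCFD12W+T10W against HFCFD2W).

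The replicate block also took *Pdgfa* out of the differences between HFCFD12W+T10W and HFCFD2W (1.05, adjusted p = 0.104 in edgeR), and *Pdgfb* left them without Cebpa fl/fl replicate 3 of HFCFD2W (1.70, adjusted p = 0.0530). The block could not be fitted for Cebpa fl/fl livers between experiments. Numbers of all genes that passed as higher in HFCFD12W+T10W ran from 1777 (fold change over 2) to 7049 (library totals). CPM in place of TPM lowered the knockout to Cebpa fl/fl ratio in HFCFD12W+T10W from 2.03 to 1.51 for *Des*, 1.93 to 1.5 for *Reln*, 2.36 to 1.77 for *Hand2* and 3.45 to 2.61 for *Pdgfrb*. Genes with under 20 counts in many libraries, such as *Acta2*, *Hand2*, *Ngfr*, *Pdgfa* and *Pdgfb*, are among those whose differences the depth limits most.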
